A study of Homo sapiens with 6 samples.

Results

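The YAP and TEAD target programme was described through 10 genes taken by name from the deposited table of 61859 genes. They are YAP1, its paralog WWTR1 (the gene of TAZ), and 8 genes known as their targets: CCN1, CCN2, ANKRD1, AMOTL2, LATS2, AXL, DLC1 and CRIM1. Each name stood in a single row. RNA was sequenced from OSC19SSZR, a human oral squamous cell carcinoma line resistant to sulfasalazine, an inhibitor of cystine import. The control group (n = 3) received control siRNA and the knockdown group (n = 3) received FOXA1 siRNA, both with Lipofectamine RNAi max, and both were collected after 48 h. All 6 samples are the resistant line, so no result here bears on the sulfasalazine-sensitive state.

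YAP and TAZ are transcriptional coactivators without a DNA-binding domain. In the nucleus they bind TEAD factors, which recognise a short DNA word, and they raise genes of growth, matrix contact and the cytoskeleton. The Hippo kinases MST and LATS phosphorylate YAP and TAZ, which keeps them in the cytoplasm, so the activity of the pair is set largely at the protein level and their mRNAs report only part of it. Several of the best-known targets are themselves brakes on the pathway, among them LATS2 and AMOTL2. In squamous epithelium the pathway is known for the upkeep of proliferating basal cells.

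Between 16510125 and 25732569 reads per library stood behind the values, which are read counts divided by a size factor of the library. FOXA1 itself fell, from 1438 ± 52.8 in the controls to 209 ± 32.5. Levels, ratios and shares written with ± are means and SD over n = 3 libraries per group, and log2 fold changes are given ± SE. All 8 squamous epithelial markers examined were measured at a mean of at least 10. Of 6 fibroblast markers only COL1A1 reached that level, and DCN, LUM and PDGFRA had no reads. Of 4 endothelial markers CDH5 alone reached it and KDR had no reads. Of 4 leukocyte markers CD68 alone reached it. The summed endothelial markers, mostly CDH5, ranged from 542 to 571 in the control libraries and from 279 to 302 in the knockdown libraries. The fibroblast sum ranged from 144 to 163 and from 92.5 to 135, the squamous sum from 52531 to 54772 and from 58116 to 60882, and the leukocyte sum overlapped (97.0 to 109 and 78.2 to 101). The part of other cell types in any result was not tested. The labels do not say that replicates were separate cultures, so p-values measure only how these libraries vary, and that variation may be technical.

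The recognition word of TEAD factors was searched in promoter windows from RefSeq (GRCh38.p14), each with 250 bases before and 50 after an annotated start. CCN1 and CRIM1 had no matching window. DLC1 was set aside before the search, so nothing is said here of its promoter. The remaining 7 of the 10 genes had 10 windows, which were searched. The letters GGAATG, on either strand, stood in 6 of these windows and in 14.0% of all 35116 windows. Most of these genes were taken as known targets and some have 2 windows, so the difference was not tested. The CCN2 window held 3 copies, a number reached by 0.128% of all windows. The ANKRD1 window held 2, and 1.37% of all windows held at least that number. YAP1, LATS2, 1 of 2 windows of AMOTL2 and 1 of 2 of AXL held a single copy, and neither window of WWTR1 held any. The bases before the start are shown for CCN2 and ANKRD1, which carry the most copies among these windows, and for YAP1. The matches are in capitals. They lie at chr6:131951373-131951622 (minus strand), chr10:90921088-90921337 (minus strand) and chr11:102110197-102110446 (plus strand).
CCN2: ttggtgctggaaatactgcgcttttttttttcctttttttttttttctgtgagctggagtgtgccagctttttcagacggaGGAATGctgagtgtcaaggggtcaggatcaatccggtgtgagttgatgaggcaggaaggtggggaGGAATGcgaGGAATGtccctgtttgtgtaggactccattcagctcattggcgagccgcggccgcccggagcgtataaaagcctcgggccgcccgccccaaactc
ANKRD1: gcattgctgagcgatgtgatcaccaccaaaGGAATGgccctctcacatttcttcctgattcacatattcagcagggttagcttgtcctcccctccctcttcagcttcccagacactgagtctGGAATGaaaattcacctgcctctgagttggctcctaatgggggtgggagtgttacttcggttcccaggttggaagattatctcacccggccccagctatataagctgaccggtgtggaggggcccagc
YAP1: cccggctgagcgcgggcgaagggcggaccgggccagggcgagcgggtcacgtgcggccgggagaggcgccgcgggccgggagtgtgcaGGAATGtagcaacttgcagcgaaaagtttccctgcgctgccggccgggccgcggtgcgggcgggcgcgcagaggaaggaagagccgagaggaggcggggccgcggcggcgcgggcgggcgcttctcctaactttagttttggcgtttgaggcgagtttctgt
Counted from the start, the copies begin at -169, -104 and -95 in CCN2, at -220 and -128 in ANKRD1 and at -162 in YAP1. A match of letters is not a measured binding site. The forkhead word TGTTTAC, searched on both strands, stood in 1 window each of WWTR1 and AXL and in 3.42% of all windows. A loose form of the AP-1 word, TGANTCA with any base at N, stood in the ANKRD1 window alone among these 10, and in 7.71% of all windows. The ANKRD1 match reads TGATTCA, with T at N rather than the G or C of the strict AP-1 word. The strict word was not searched on its own.

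Against control siRNA, 5 of the genes rose and 2 fell with FOXA1 siRNA. DLC1 and CCN1 rose most, LATS2 and AMOTL2 rose by less, and YAP1 rose by a margin that depended on the scaling. WWTR1 and CRIM1 fell slightly, AXL did not pass, and CCN2 and ANKRD1 were barely expressed in either group. The test was limma with Benjamini-Hochberg adjustment over 18460 genes with a mean of at least 10 normalized counts, at a threshold of 0.05. Of those genes 51.8% passed, 26.8% as higher and 25.0% as lower, and the 7 of 8 tested genes that passed are to be read against that background. In bulk RNA, fewer cells of a type and less RNA per cell cannot be told apart. The 3 control values and the 3 knockdown values did not overlap for 8 of 8 tested genes, AXL included, as for 57.6% of all tested genes. Their median change was 0.23 on the log2 scale, against 0.0039 over all tested genes. The authors' deposited table called 4 of the 10 higher and 2 lower at an adjusted p under 0.05, where 37.0% of its genes with an adjusted p passed. The gene it left out of the rises was YAP1 (adjusted p = 0.0753 in the authors' deposited table).

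**Figure D1:**
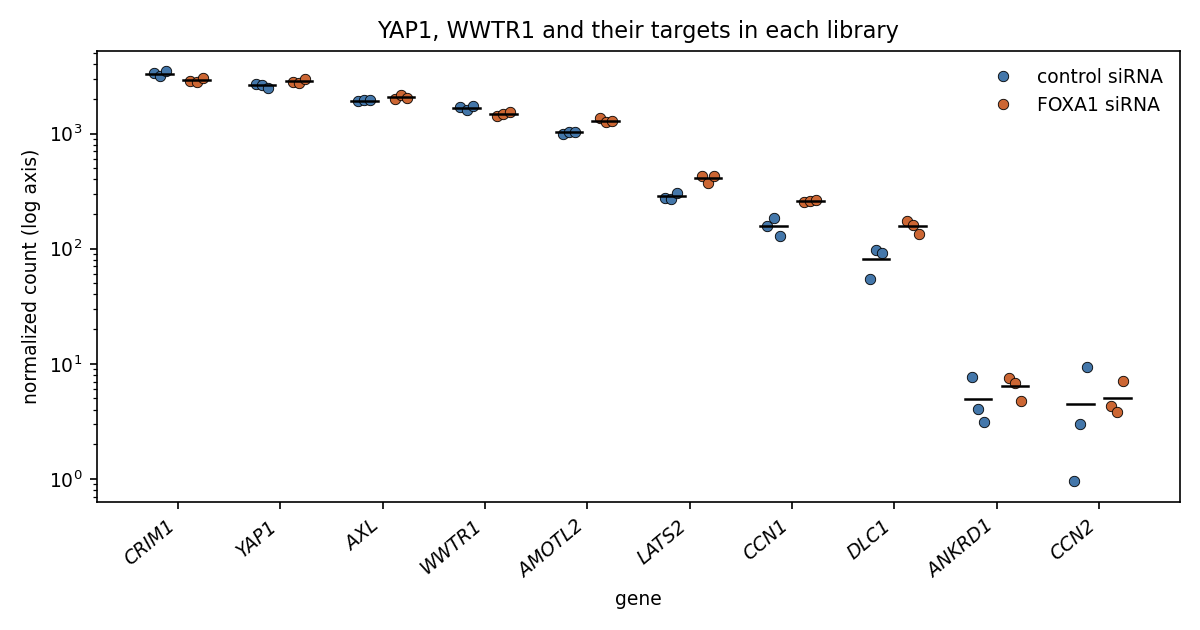
Normalized count on a log axis for each of the 10 genes, ordered by mean, with 1 point per library and a bar at the mean of 3 libraries per group. CCN2 and ANKRD1 lie under 10 in every library, and the other 8 genes show no overlap between the groups.

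**Figure D2:**
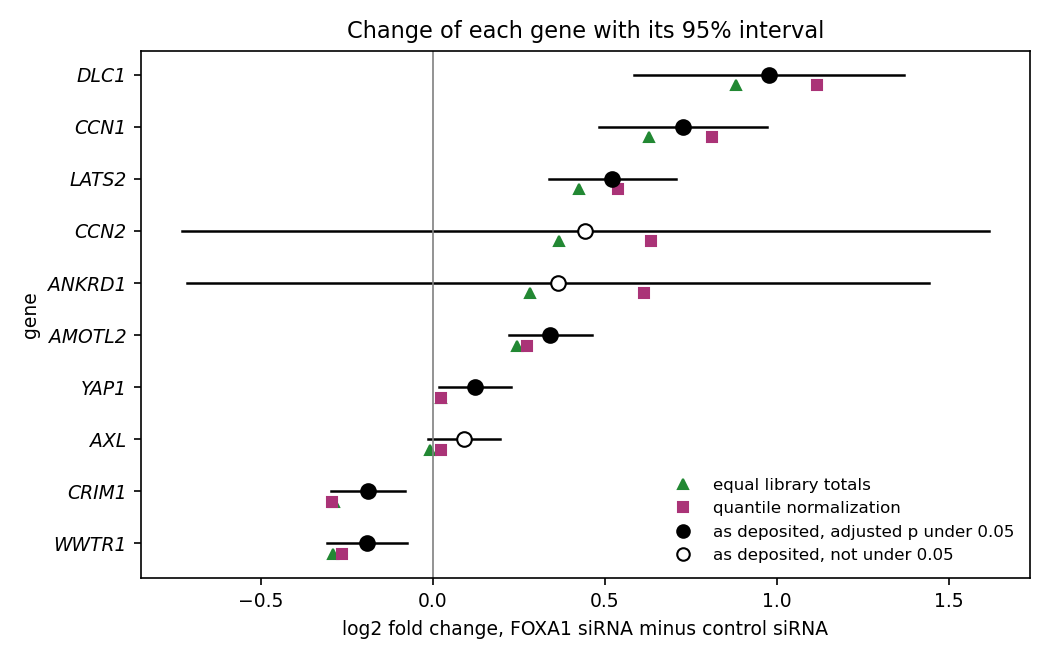
Log2 fold change of each gene (FOXA1 siRNA minus control siRNA) with its 95% interval from limma, filled where the adjusted p was under 0.05, and the same change after 2 other scalings. CCN2 and ANKRD1 come from the fit with no filter on low values. YAP1 and AXL lie near 0 under both other scalings, where AXL reaches -0.0071 with equal totals.

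The coactivator genes went opposite ways by small amounts. YAP1 (chromosome 11, 102110461 to 102233423 in GENCODE 29, GRCh38) had 2720, 2643 and 2507 normalized counts in control replicates 1 to 3 and 2796, 2772 and 2998 in knockdown replicates 1 to 3. The lowest knockdown library lies only just above the highest control library. The difference was 0.12 ± 0.05 on the log2 scale (limma adjusted p = 0.0480). Scaling every library to the same total left 0.024 (limma adjusted p = 0.712). The call also ended without control replicate 2 (0.13, limma adjusted p = 0.0926) or control replicate 3 (0.090, limma adjusted p = 0.237), and without knockdown replicate 1 (0.14, limma adjusted p = 0.0538) or knockdown replicate 3 (0.086, limma adjusted p = 0.138). In all, 10 of 15 alternatives ended the call, the replicate block among them (limma adjusted p = 0.0862).

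WWTR1 (chromosome 3, 149517235 to 149736714) had 1699, 1600.0 and 1740 normalized counts in the control libraries and 1411, 1471 and 1529 in the knockdown libraries. Every knockdown library was below every control library, a difference of -0.19 ± 0.06 on the log2 scale (limma adjusted p = 0.00559). It was -0.29 with equal totals, and limma with neither trend nor robust weighting ended the call (adjusted p = 0.0520). Divided by the length of annotated exons, YAP1 and WWTR1 together came to 616 ± 15.5 normalized counts per kilobase in the controls and 628 ± 25.8 after knockdown, with overlapping libraries. YAP1 made up 67.6% ± 1.57 of that sum in the controls and 72.2% ± 0.538 after knockdown.

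A ratio of 2 genes within a library hardly depends on the size factor, so paralogs were also set against each other for 4 pairs. The log2 ratio of YAP1 to WWTR1 was 0.64 ± 0.10 in the controls and 0.96 ± 0.04 after knockdown, and no control library reached a knockdown library. The exact two-sided permutation test gave p = 0.1, the smallest that 3 against 3 allows, or 0.133 after Benjamini-Hochberg adjustment over 4 pairs. The change of the ratio, 0.31, kept between 0.26 and 0.35 when any library was left out.

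**Figure D3:**
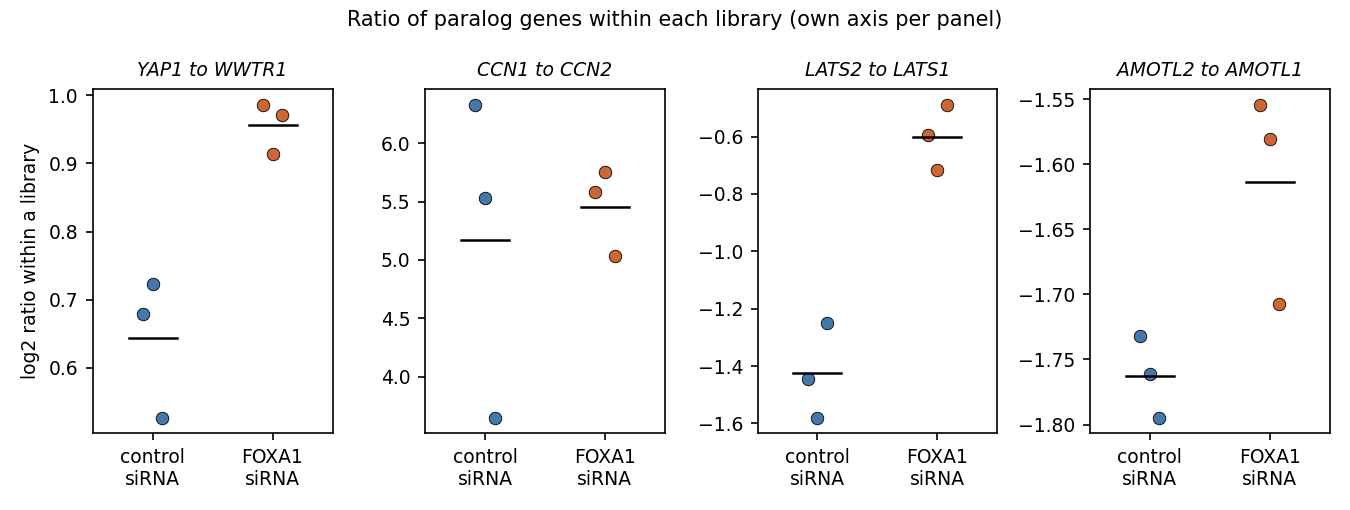
Log2 ratio of 2 paralog genes within each library, 1 point per library, bars at group means and a separate axis per panel. LATS2 to LATS1 and YAP1 to WWTR1 separate the groups, as does AMOTL2 to AMOTL1 by a smaller step, while CCN1 to CCN2 overlaps.

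Both targets that act as brakes rose. LATS2, a kinase that phosphorylates YAP and TAZ (chromosome 13, 20973032 to 21061547), had 278, 270.4 and 305 normalized counts in the control libraries and 431, 371 and 426 in the knockdown libraries. The groups lie well apart, with a log2 fold change of 0.52 ± 0.09 (limma adjusted p = 1.92e-05). Its paralog LATS1 moved the other way, with 758, 810.1 and 728 normalized counts in the controls and 651, 611 and 598 after knockdown (log2 fold change -0.30 ± 0.07, limma adjusted p = 6.20e-04). Their log2 ratio, LATS2 to LATS1, went from -1.43 ± 0.17 to -0.60 ± 0.11 (exact permutation p = 0.1, adjusted 0.133). Per kilobase of exon, LATS2 made up 36.6% ± 2.67 of the summed LATS level in the controls and 50.5% ± 1.99 after knockdown. The sum itself was 140 ± 2.41 against 145 ± 7.67 normalized counts per kilobase and overlapped between groups.

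AMOTL2, an angiomotin that holds YAP at cell junctions (chromosome 3, 134355874 to 134375479), had 1000.5, 1041 and 1027 normalized counts with control siRNA. With FOXA1 siRNA it had 1352, 1266 and 1273, all above the controls (log2 fold change 0.34 ± 0.06, limma adjusted p = 1.84e-05). The related AMOTL1 went from 3474 ± 131 to 3972 ± 185 (0.19 ± 0.05, limma adjusted p = 0.00192), a call that ended with equal totals (0.095, adjusted p = 0.114), with quantile normalization (0.085, adjusted p = 0.142) and with neither trend nor robust weighting (0.19, adjusted p = 0.0523). The log2 ratio of AMOTL2 to AMOTL1 changed by 0.15 (exact permutation p = 0.1, adjusted 0.133). AMOT, the founding member, was low and fell (30.2 ± 5.57 to 13.7 ± 6.41 normalized counts; limma adjusted p = 0.00545). AMOT is under the level of 50 set for named genes and was added, after its values were seen, to complete the family.

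The matricellular targets differed in level by a wide margin. CCN1, a secreted protein that binds integrins and is also called CYR61 (chromosome 1, 85580761 to 85583962), had 156, 186 and 130 normalized counts in the control libraries and 252, 257 and 264 in the knockdown libraries. The knockdown libraries are tight and the controls spread, yet the groups do not meet, and the difference was 0.73 ± 0.12 (limma adjusted p = 9.19e-06). CCN2, also called CTGF (chromosome 6, 131948176 to 131951373), gave 1, 3 and 9 reads in the control libraries and 4, 5 and 6 in the knockdown libraries. Its 13 against 15 reads give a knockdown to control ratio of 1.12 (exact 95% interval 0.496 to 2.55, counting error only), so a change within that interval was not detectable at this depth. The control libraries spread more than the knockdown libraries, and the log2 ratio of CCN1 to CCN2 within a library overlapped between groups (exact permutation p = 0.8, adjusted 0.8). The fitted change of CCN2 was 0.44 ± 0.60 (limma adjusted p = 0.627, no filter) and turned to -0.13 without control replicate 1. Of the other CCN genes none reached the mean of 10. CCN3 had no read in any control library and 3, 7 and 5 in the knockdown libraries, and CCN6 had none in any.

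ANKRD1 (chromosome 10, 90912096 to 90921276), a nuclear and sarcomeric ankyrin-repeat protein and a standard reporter of YAP activity, was as low as CCN2. It gave 8, 4 and 3 reads in the controls and 7, 9 and 4 after knockdown. The 15 against 20 reads give a ratio of 1.29 (exact 95% interval 0.629 to 2.71, counting error only), and the libraries overlap. The promoter windows printed above with 3 and 2 GGAATG words belong to the 2 genes with the fewest reads among the 10. Neither gene passed the filter on low values.

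AXL, a receptor tyrosine kinase of invasive carcinoma cells (chromosome 19, 41219203 to 41261766), did not pass. It had 1918, 1939 and 1948 normalized counts in the control libraries and 2011, 2141 and 2033 in the knockdown libraries. The knockdown libraries are all higher, but the difference was 0.09 on the log2 scale (95% interval -0.01 to 0.20, limma adjusted p = 0.143) and turned to -0.0071 with equal totals. PROS1 and GAS6, genes of ligands of the receptor family to which AXL belongs, both fell. PROS1, protein S, fell from 456, 468 and 466 normalized counts to 140, 107 and 155 (log2 fold change -1.80 ± 0.11, limma adjusted p = 5.91e-13). GAS6 fell from 939 ± 60.2 to 747 ± 56.2 (-0.33 ± 0.07). The sister receptor TYRO3 rose from 423 ± 39.6 to 684 ± 33.6 (0.69 ± 0.08), and MERTK did not pass (limma adjusted p = 0.590).

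DLC1, a GTPase-activating protein (chromosome 8, 13083361 to 13604610), rose. It had 54.2, 96.8 and 92.1 normalized counts in the control libraries and 174, 162 and 134 in the knockdown libraries. Control replicate 1 lies apart from the other two controls, and all knockdown libraries are above all controls (log2 fold change 0.98 ± 0.19, limma adjusted p = 2.07e-04). Over its alternatives the change ran from 0.71 to 1.13. Without control replicate 1 it was 0.71, beside 0.73 for CCN1.

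CRIM1, a transmembrane protein with cysteine-rich repeats that binds BMPs (chromosome 2, 36355926 to 36551135), had 3325, 3147 and 3476 normalized counts in the control libraries and 2881, 2787 and 3064 in the knockdown libraries. It was lower in each knockdown library (log2 fold change -0.19 ± 0.05, limma adjusted p = 0.00335). Quantile normalization gave -0.29, and limma with neither trend nor robust weighting ended the call (adjusted p = 0.0679). Both genes that fell, WWTR1 and CRIM1, did so by a like amount (-12.4% and -12.2%), and DLC1 rose by 93.0%.

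The order of levels was compared per kilobase of annotated exon. In the controls CRIM1 led with 466 ± 23.1 normalized counts per kilobase, before YAP1 (417 ± 17.1), AXL (375 ± 2.94), WWTR1 (200 ± 8.53), AMOTL2 (171 ± 3.45), CCN1 (64.0 ± 11.4), LATS2 (51.0 ± 3.32) and DLC1 (6.33 ± 1.83). ANKRD1 (2.49 ± 1.19) and CCN2 (1.91 ± 1.89) came last. Libraries overlapped between CCN1 and LATS2 and between ANKRD1 and CCN2, and between no other neighbours. After knockdown YAP1 led (454 ± 19.8) before CRIM1 (409 ± 19.8) and AXL (400.0 ± 13.5), which overlapped each other. AMOTL2 (217 ± 7.98) then stood above WWTR1 (175 ± 7.03), and CCN1 (105 ± 2.58) no longer overlapped LATS2 (73.4 ± 5.95).

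Whether the counting used strand is not given in the sources used here. Exons of genes on the opposite strand overlap YAP1 (AP000942.2, mean 549 normalized counts), WWTR1 (WWTR1-AS1, 283), CRIM1 (AC007378.1, 198), AXL (AC011510.1, 106) and CCN2 (AL133346.1, 1.56). Reads of these genes cannot be told apart from those of the 5 genes without strand.

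Of the DNA-binding partners, TEAD1, TEAD2 and TEAD4 rose and TEAD3 did not pass. TEAD1 had 1993, 2164 and 2021 normalized counts in the control libraries and 4365, 4075 and 4717 in the knockdown libraries, a log2 fold change of 1.09 ± 0.05 (limma adjusted p = 2.19e-15). TEAD4 went from 265, 222 and 219 to 480.2, 471 and 435 (0.98 ± 0.09, limma adjusted p = 9.85e-10). For both genes every knockdown library is well above every control library. TEAD3 overlapped between groups, with 657, 756 and 659 against 693, 642 and 624 (-0.08, 95% interval -0.23 to 0.07, limma adjusted p = 0.387). TEAD2 was low throughout (8.72 ± 1.82 against 24.9 ± 8.05, SD, n = 3 each) and rose (limma adjusted p = 0.00234). Per kilobase, the 4 TEAD genes summed to 534 ± 24.0 normalized counts in the controls and 853 ± 23.5 after knockdown. TEAD1 held 36.7% to 38.4% of the sum in the controls and 48.0% to 53.2% after knockdown. TEAD3 held 42.5% ± 1.77 and then 25.1% ± 1.25.

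VGLL4, a cofactor that competes with YAP for TEAD and represses its targets, fell from 919, 884 and 988 normalized counts to 468, 519 and 459. The groups are far apart (log2 fold change -0.95 ± 0.07, limma adjusted p = 1.27e-11). VGLL1, another TEAD cofactor, rose (869 ± 13.1 to 1074 ± 35.4; 0.31 ± 0.06), and VGLL3 did not pass (limma adjusted p = 0.927). Of the 7 tested TEAD and VGLL genes 4 rose and 1 fell, with a median log2 fold change of 0.31, where 51.8% of all tested genes were called, 26.8% as higher and 25.0% as lower.

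**Figure D4:**
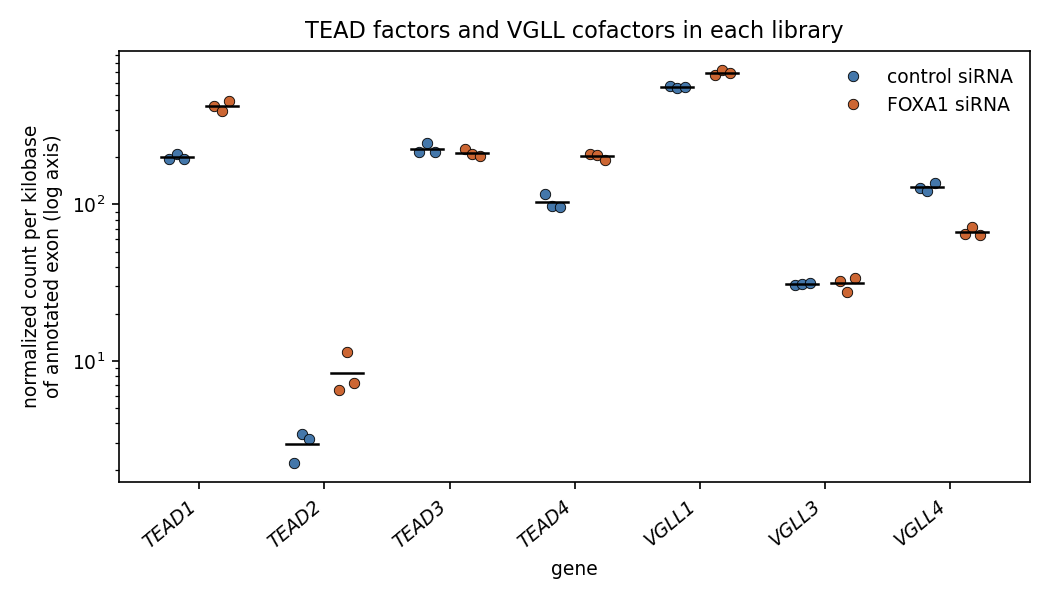
Normalized count per kilobase of annotated exon on a log axis for the 4 TEAD factors and 3 VGLL cofactors, 1 point per library and bars at group means. TEAD1 and TEAD4 lie higher and VGLL4 lower in all 3 FOXA1 siRNA libraries, and TEAD3 and VGLL3 overlap.

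Of 26 tested Hippo kinases and upstream regulators 10 rose and 4 fell (median log2 fold change 0.09), a share close to the 51.8% called over all tested genes. Most of them had means over 300 normalized counts, and among all tested genes at such levels the share called was higher, from 60.3% to 77.3% by level. The kinases STK3 and STK4, which are MST2 and MST1, did not pass (limma adjusted p = 0.274 and 0.0987). Rises included NF2, the membrane scaffold merlin (969 ± 13.8 to 1256 ± 24.6 normalized counts; 0.37 ± 0.06), its partners WWC1, also called KIBRA (0.35 ± 0.06), and WWC2 (0.59 ± 0.10), and FRMD6 (0.46 ± 0.05). PTPN14, a phosphatase that binds YAP and also one of its targets, rose by 0.46 ± 0.06, and RASSF1, an MST adaptor, by 0.61 ± 0.15. The 4 that fell were LATS1, AMOT, the giant cadherin FAT1 (-0.25 ± 0.06, adjusted p = 0.0588 in limma with neither trend nor robust weighting) and STRN3 (-0.33 ± 0.06), a subunit of the phosphatase complex that opposes MST. SLMAP, another subunit of that complex, rose (0.34 ± 0.06). The number of falls became 7 with quantile normalization. The smallest rises were those of SAV1, an MST scaffold, and the kinase gene TAOK3. SAV1 (0.16 ± 0.06, limma adjusted p = 0.0225) lost its call in 5 of 15 alternatives, among them equal totals (0.063, limma adjusted p = 0.374) and leaving out control replicate 2 (0.16, limma adjusted p = 0.0674) or 3 (0.16, limma adjusted p = 0.0557). TAOK3 (0.17 ± 0.07, limma adjusted p = 0.0347) lost it in 8 of 15, among them equal totals (0.070, limma adjusted p = 0.387) and leaving out control replicate 2 (0.16, limma adjusted p = 0.0925) or 3 (0.14, limma adjusted p = 0.138) or knockdown replicate 1 (0.15, limma adjusted p = 0.105) or 3 (0.14, limma adjusted p = 0.0869).

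Other known YAP and TEAD targets were read as a second group, which shares PTPN14 with the list above. Of 13 tested, 7 rose and 2 fell (median log2 fold change 0.26), against 51.8% called over all tested genes and 67.6% among those with a mean of 1000 to 3000 normalized counts. Means of these genes ran from 181 (FOXF2) to 9109 (IGFBP3), and the bands that hold them had from 51.0% to 77.3% called. Over all tested genes 26.8% were higher and 25.0% lower. IGFBP3, which binds insulin-like growth factors, went from 6344 ± 243 to 11875 ± 933 normalized counts (0.90 ± 0.05), and F3, the tissue factor gene, from 2967 ± 107 to 5169 ± 214 (0.80 ± 0.05). The kinase gene NUAK2 (0.68 ± 0.07) and FJX1 (0.52 ± 0.05) rose, and DOCK5 rose by 0.26 ± 0.06 as deposited and by 0.16 with equal totals. GADD45A passed (0.27 ± 0.11, limma adjusted p = 0.0435) with overlapping groups, and lost its call in 8 of 15 alternatives. These include leaving out control replicate 1 (0.31, limma adjusted p = 0.05005) or 2 (0.13, limma adjusted p = 0.333) and knockdown replicate 1 (0.25, limma adjusted p = 0.104) or 2 (0.22, limma adjusted p = 0.158), and the replicate block (0.27, limma adjusted p = 0.0589). NT5E, the ectonucleotidase CD73, fell (3353 ± 106 to 2131 ± 13.6; -0.65 ± 0.05) and so did ARHGEF17 (-0.24 ± 0.07), the latter not with limma with neither trend nor robust weighting (adjusted p = 0.0687). TGFB2 and RBMS3 were under the filter on low values, with 10 against 42 and 33 against 18 reads.

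CCN1, CCN2 and ANKRD1 also respond to serum response factor (SRF), so its actin-linked axis and the immediate-early genes were read beside them. Of 11 tested SRF-axis genes 4 rose and 1 fell (median log2 fold change 0.13), a share near the 51.8% called over all tested genes. Their means ran from 12.6 to 3775 normalized counts, and the bands that hold them had from 31.5% to 77.3% called. TPM1, a tropomyosin of actin filaments, went from 2446, 2461 and 2567 normalized counts to 4856, 4940.2 and 5379 (1.02 ± 0.05, limma adjusted p = 1.36e-15), and VCL, vinculin of focal adhesions, from 2227 ± 125 to 3160 ± 12.7 (0.51 ± 0.05). FHL2 rose by 0.28 ± 0.06, or 0.18 with equal totals, and the coactivator gene MRTFA by 0.20 ± 0.06, which did not pass with equal totals (limma adjusted p = 0.212), without control replicate 1 (0.17, limma adjusted p = 0.0584) or without knockdown replicate 2 (0.16, limma adjusted p = 0.0693). FILIP1L fell (398 ± 18.2 to 125 ± 26.2; -1.68 ± 0.12). SRF itself and TAGLN did not pass (limma adjusted p = 0.133 and 0.281), and CNN1 and ACTG2 were under the filter.

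Of 10 immediate-early genes 7 rose and 1 fell (median log2 fold change 0.40), where 26.8% of all tested genes were higher and 25.0% lower. JUN, an AP-1 subunit, rose from 309 ± 11.7 to 657 ± 11.0 normalized counts (1.08 ± 0.08), and KLF6 from 239 ± 6.55 to 460 ± 23.9 (0.94 ± 0.09). DUSP1 (0.64 ± 0.14), FOSB (0.50 ± 0.16), IER2 (0.43 ± 0.07) and IER3 (0.34 ± 0.07) rose by less, and FOSB did not pass without knockdown replicate 1 (limma adjusted p = 0.0581). JUNB rose by 0.16 as deposited and did not pass with equal totals (0.060, limma adjusted p = 0.415), without control replicate 2 (0.13, limma adjusted p = 0.128) or without knockdown replicate 1 (0.12, limma adjusted p = 0.133) or 2 (0.15, limma adjusted p = 0.0730). FOS fell (-0.36 ± 0.12, limma adjusted p = 0.0146), a call that ended without control replicate 3 (-0.33, limma adjusted p = 0.0525) or knockdown replicate 2 (-0.24, limma adjusted p = 0.123), and with quantile normalization (-0.27, limma adjusted p = 0.0627).

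**Figure D5:**
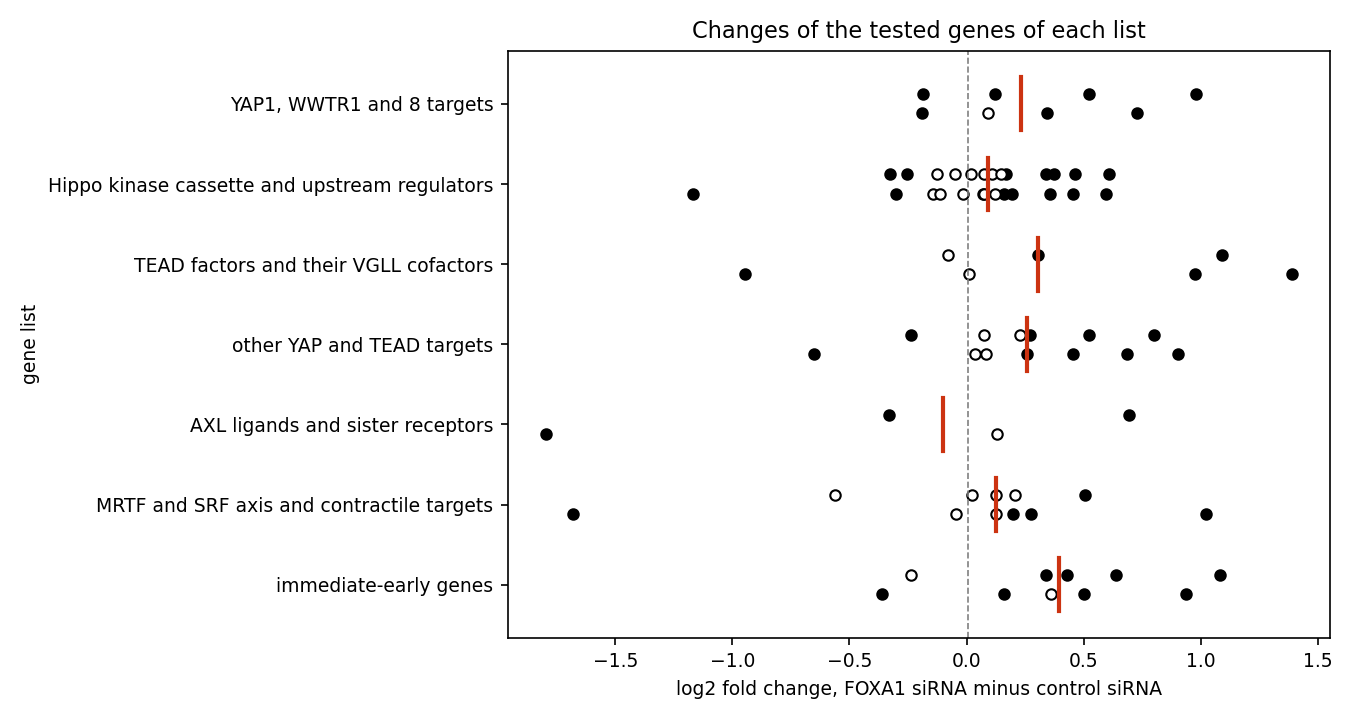
Log2 fold change (FOXA1 siRNA minus control siRNA) of every tested gene of 7 lists, filled where the limma adjusted p was under 0.05, with a red bar at the median of each list and a dashed line at the median of all tested genes (0.0039). The TEAD and VGLL list runs from VGLL4 at -0.95 to TEAD2 at 1.39, with TEAD4 at 0.98 and TEAD1 at 1.09.

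As deposited, 51.8% of the genes called were higher, and with equal library totals 37.6% were. The median over all tested genes then moved to -0.093. Among tested genes with a mean of 1000 to 3000 normalized counts, the range of YAP1, WWTR1, AMOTL2 and AXL, 67.6% were called with a median of 0.09. In the range from 100 to 300, which holds CCN1 and DLC1, 51.0% were called with a median of -0.05. In the range from 300 to 1000, which holds LATS2, 60.3% were called with a median of 0.04. From 3000 upward, where CRIM1 lies, 77.3% were called with a median of 0.19.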

How the data were processed

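RNA of 6 samples of OSC19SSZR cells, 3 per siRNA, was sequenced from NEBNext Ultra libraries, per the labels. The submitters' processing notes name the tools HISAT2 and DESeq2 without roles, and both GRCh38 and the mouse build GRCm38, and the counting step is not given in the sources used here. The authors deposited 1 normalized signal per gene and sample, whose steps show it to be a read count over a size factor (0.843 to 1.32). They also deposited a log2 fold change and its standard error, a test score, and p-values with adjusted p-values, per the file headers. Of 61862 lines 3 were malformed and left out, and 100% of the remaining values were whole multiples of 1 step per library to within 0.01 read, which gave the reads.

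Limma 3.58.1 (R 4.3.3; eBayes with trend and robust) was fitted to log2(normalized count + 1) of all genes with a mean of at least 10, which understates folds of low genes; CCN2 and ANKRD1 were fitted with no filter. The fit was tested on simulated counts. Alternatives were pseudocounts of 0.5 and 5, no filter, a mean of at least 50, equal totals, quantile normalization, recomputed factors, no trend, a replicate block, each sample left out and a threshold of 0.01. Lengths are unions of GENCODE 29 exons. Named genes are the 10 members, called genes of fixed lists with a mean of at least 50, the TEAD factors, LATS1, AMOTL1, FOXA1, GAS6 and PROS1; other named genes that did not pass, AMOT and genes under the filter were chosen after their values were seen. Members and lists were chosen with earlier results of these data known. One of the lists is not reported here.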

Additional observations from a re-analysis of the deposited data

How the results depend on the processing

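The rises of CCN1, AMOTL2, LATS2 and DLC1 kept their direction and passed under all 15 alternatives. The call of YAP1 ended with no filter (log2 fold change 0.12, limma adjusted p = 0.0746), equal totals (0.024), quantile normalization (0.023), recomputed factors (0.11), limma without trend or robust weighting (0.12) and the replicate block (0.12, limma adjusted p = 0.0862). With each library left out its change ran from 0.086 to 0.15. Limma without trend or robust weighting also ended the calls of WWTR1 (-0.19) and CRIM1 (-0.19), which left 0 of the 10 genes lower by limma at the adjusted threshold and both of these lower at an unadjusted p under 0.05. The authors' deposited table called both lower. AXL turned to -0.0071 with equal totals. CCN2, fitted with no filter, ran from -0.13 to 1.07 when each library was left out and turned negative without control siRNA replicate 1 (-0.13). The ratio of CCN1 to CCN2 ran from -0.48 to 0.86 when each library was left out and turned negative without control siRNA replicate 3 (-0.48). Leaving out 1 library at a time gave 4 or 5 of the genes higher and 2 lower. Of 659 results of 44 other named genes under these alternatives, 617 kept their call and direction, 42 lost their call and 0 turned. The counts over the other lists under these alternatives were added after the data were seen. They moved by over 1.5 times for falls of Hippo regulators (4, and 7 with quantile normalization), of other targets (2, and 1 in limma without trend or robust weighting) and of immediate-early genes (1, and 0 where the call of FOS ended).

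The deviations of same-numbered replicates correlated with r of -0.01, 0.01 and -0.01 over the tested genes, so no shared effect of the replicate number was seen. These values cannot tell whether same-numbered samples were prepared together. The replicate block ended the call of YAP1 among the 10 genes and no other. EdgeR and DESeq2 on recovered reads were planned and not run. Depth limits CCN2 and ANKRD1, with 13 and 15 control reads in all.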
